A study of Rattus norvegicus with 33 samples.

Results

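The right lumbar spinal dorsal horn (LDH) of adult rats injected with carrageenan into the left hindpaw on postnatal day 3 was measured on 6 two-channel arrays, out of 33 arrays in the series. These are all the arrays whose titles name the right cord after injection on day 3. Carrageenan, an extract of red seaweed, inflames the tissue where it is injected, and the right cord is the side opposite the injected paw. Per the labels' protocols, each pup was given 0.25% carrageenan in saline, 1 µl for each g it weighed, in the sole of that paw. Tissue came from male rats on postnatal day 60, and the strain is not given in the sources used here. On each array carrageenan tissue was read in channel 1 against control tissue of the same region in channel 2, each with its own Alexa dye. In a mean against 0, an effect of the dyes on a probe and a difference from control therefore cannot be told apart. This holds also where tissues share a sign. The labels do not say whether the control rats received saline, whether rats were pooled, or which arrays came from rats whose paw was inflamed a second time as adults. The left LDH (6 arrays) and the brain (6 arrays) after injection on day 3, and the right LDH after injection on day 12 (5 arrays), were used for comparison. Day 3 lies within, and day 12 outside, a sensitive period that the study names.

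The dorsal horn receives the central branches of sensory neurons, and its local excitatory and inhibitory circuits set how strongly pain signals pass to the brain. Glutamate carries fast excitation there, GABA carries much of the inhibition, and opioid peptides, neuropeptide Y, serotonin and noradrenaline damp or modulate the relay. Neurotrophins and cytokines act on these synapses over longer times, and crossing interneurons and pathways descending from the brainstem link the 2 sides of the cord. The arrays held 222 probes for such genes, of which 196 had a gene symbol, for 158 symbols, and 26 were unnamed here. A value is the log ratio of the 2 channels. Neither its log base nor its direction is stated in the sources used here. It was read as log2, and a positive value is likely, but not stated, to mean more RNA in carrageenan tissue. In tissue samples, a change in the number of cells of a type and a change in RNA per cell cannot be told apart.

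The labelled tissue could not be checked from these values, because a ratio gives no level. Probes for astrocytes, microglia, oligodendrocytes, blood and vessel, motor neurons and reference genes numbered 0. Of the list of dorsal horn neuron markers, 5 genes were measured (Gad1, Gad2, Pdyn, Penk and Sst), and their 7 probes had means from -0.42 to 0.11 with a median of 0.063. Their part, and that of cell composition, in the results below was not tested.

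Right arrays 1 and 2 correlated at r = 0.806 over probes, with 65.8% of their values within 0.1 of each other, while the other 14 pairs of right arrays had r from 0.036 to 0.35 with a median of 0.14. The near-identical pair was averaged and counted as 1 sample, called sample 1, so n = 5, and the other samples carry their array numbers 3 to 6. Correlations of right arrays with left arrays (median 0.16 over 36 pairs) and with brain arrays (median 0.18 over 36 pairs) were of about the same size as those within the right cord. These are correlations across probes, which are not independent replicates, and the arrays share the platform. Right arrays 1 and 2 correlated with left array 1 at 0.34 and 0.42. Array 4 had the widest log ratios (SD 0.774, against 0.353 to 0.524 on the other 5), 8 probes at exactly 0 where the other 5 arrays had 0, and the value largest in size for 28.4% of probes. The labels do not state that arrays came from separate rats, so p-values measure only the spread between these samples, which may be technical.

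The first question was which genes of the opposite dorsal horn differed from control in adult life. No probe passed an adjusted p of 0.05 in limma (0 of 222, 0% of probes), the lowest adjusted p being 0.238. At an unadjusted p under 0.05 there were 22 probes (9.91%), 15 positive (6.76%) and 7 negative (3.15%), where chance gives 11.1. The plain one-sample test passed 0 and robust regression 4. The log ratios were mostly small: 157 of 222 means (70.7%) lay within 0.25 of 0, 17 exceeded 0.5 in size and 3 exceeded 1. The median mean was 0.038, with 133 positive (59.9%) and 89 negative (40.1%). The 95% interval of the mean, not adjusted for the number of probes, lay within -0.5 to 0.5 for 119 probes (53.6%) and within -1 to 1 for 197 (88.7%). A single sign in all 5 samples was found for 30 probes (13.5%), 22 positive (9.91%) and 8 negative (3.60%). Of these 222 probes, 26 had a single sign on all 6 arrays.

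The lowest mean belonged to Grm5, a metabotropic glutamate receptor that couples to calcium release and strengthens excitatory transmission in the dorsal horn. Its log ratios were -2.06, -1.19, -2.71, -1.90 and -0.56 in samples 1, 3, 4, 5 and 6, a mean of -1.68 ± 0.83 (SD, n = 5) with a 95% interval of -2.43 to -0.93. All 5 values were negative, and their range was wide. Read as log2, the mean is a ratio of 3.21 between the channels. Grm5 was as low in the left cord (-2.07 ± 2.21, negative in 5 of 5) and in brain (-2.05 ± 0.64, negative in 6 of 6), so this value was not seen on the right side alone. The right minus left difference was 0.39 with a 95% interval of -1.34 to 2.12. Leaving out 1 sample at a time moved the Grm5 mean between -1.96 and -1.43 and its adjusted p between 0.131 and 0.362.

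The highest mean belonged to IL12B, the shared subunit of interleukins 12 and 23. Its probe was annotated with the human gene, which was not among the rat genes of the table used for names. How well this probe reads rat RNA was not tested. Its log ratios were 1.11, 1.32, 2.83, 0.59 and 1.57, with a mean of 1.48 ± 0.84 (95% interval 0.73 to 2.24). All 5 samples were positive, sample 4 highest. In the left cord IL12B had 0.83 ± 1.38 and in brain 0.47 ± 1.01, each positive in 3 samples (of 5 and 6). IL12A, the partner subunit on a like entry, lay at 0.025 ± 0.34 and the rat Il12a probe at 0.28 ± 0.33. The receptor gene Il12rb1 lay at 0.090 ± 0.18. In limma IL12B did not pass, with an adjusted p of 0.238, and between 0.215 and 0.429 with 1 sample left out at a time. Robust regression, which gives distant samples less weight, put IL12B at 1.33 with an adjusted p of 0.0273.

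**Figure D1:**
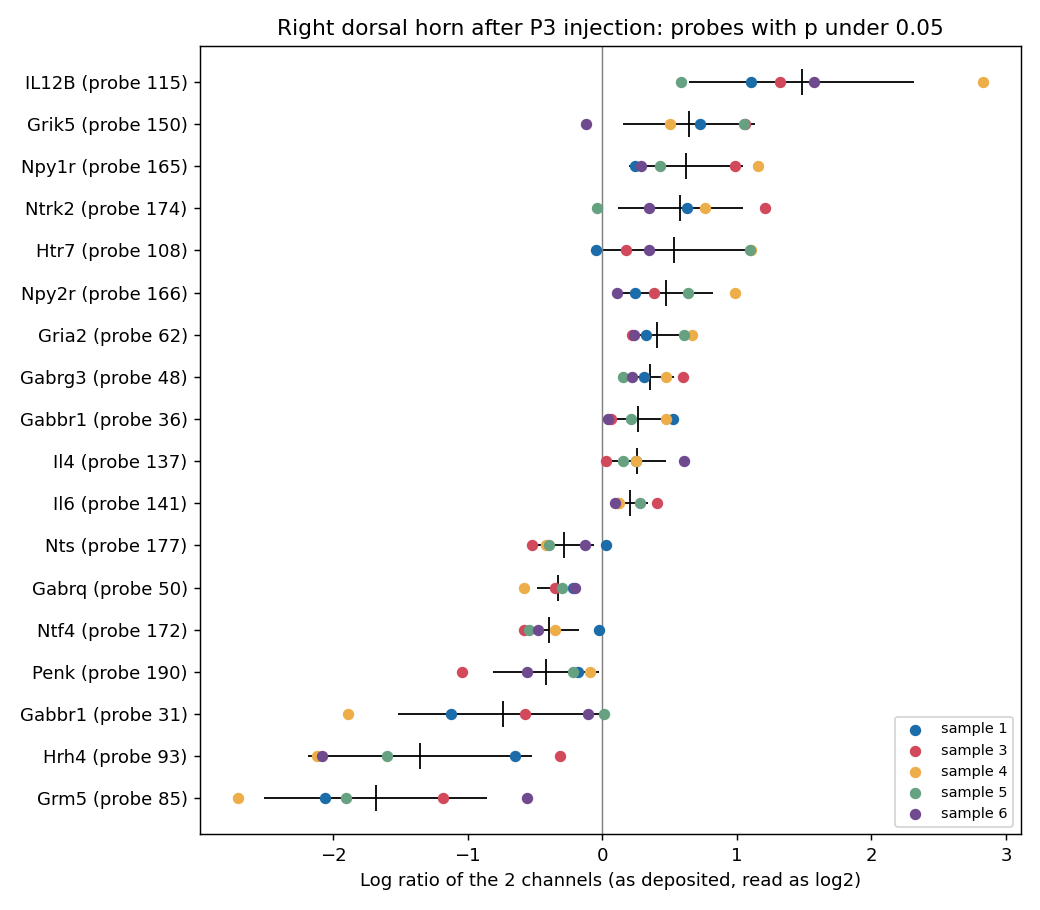
Log ratios of the 18 named probes with an unadjusted limma p under 0.05 in the right dorsal horn after injection on day 3. Each coloured point is a sample, the vertical tick is the mean of 5 samples and the bar is ± SD. Of the 18, 13 have a single sign in all 5 samples, which picking by p favours. The means of IL12B, Hrh4 and Grm5 are the ones over 1 in size.

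Of the 22 probes at an unadjusted p under 0.05, 18 had a symbol, 11 with a positive and 7 with a negative mean. Their adjusted p ran from 0.238 to 0.477. In 13 of the 18 all 5 samples had a single sign, and in 12 all 6 arrays did. Over all 222 probes, 30 (13.5%) had a single sign in all 5 samples. Picking probes by a low p in these same samples favours a single sign, so the count of 13 is no separate evidence. Of the 18, 7 lay in genes with several probes, and 8 had a mean over 0.5 in size. They are described below by family, each family beside the share of positive means (59.9%) and the median (0.038) over all 222 probes.

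Ionotropic glutamate receptors, the channels of fast excitation, had mostly positive means. The AMPA receptor list had 5 of 5 probes positive with a median of 0.17, the lowest being Gria3 at 0.11, the NMDA receptor list 8 of 10 with a median of 0.095, and the kainate receptor list 6 of 7 with a median of 0.13. The glutamate transporters Slc1a6 and Slc1a1 lay at -0.12 and 0.15. Metabotropic receptors, which act through G proteins, had 5 of 8 positive with a median of 0.035. Over all 30 glutamate receptor probes, 24 were positive with a median of 0.11, against 15 of 30 positive in the left cord and 15 of 30 in brain. The share of positive means over all probes is given for the right cord alone. Counts by tissue, here and for the lists below, therefore do not by themselves show a difference between tissues. At an unadjusted p under 0.05, 2 of the 30 were positive and 1 was negative, and 0 passed after adjustment. The median of the 30 probes was 0.066, 0.19, -0.002, 0.073 and 0.034 in samples 1, 3, 4, 5 and 6, and the median of all probes was 0.036, 0.086, 0, 0.026 and 0.018.

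Among the channel subunits, Gria2, which makes AMPA receptors impermeable to calcium, had log ratios of 0.32, 0.22, 0.67, 0.61 and 0.24 on probe 62. The mean was 0.41 ± 0.21, positive in every sample, and the adjusted p was 0.238. Its other probe, 58, had 0.17 ± 0.48 with sample 4 at exactly 0 and samples 3 and 5 negative. The 2 Gria2 probes thus gave means of like sign and unlike spread. Grik5, a kainate receptor subunit that assembles with others, had 0.73, 1.06, 0.50, 1.05 and -0.12 (mean 0.65 ± 0.49), positive in all samples but 6. The lowest kainate mean was that of Grik2, at -0.25 ± 0.57 with 2 samples positive and 3 negative.

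The 4 probes of Grin1, the obligatory NMDA receptor subunit, had means of -0.076, 0.12, 0.14 and 0.084. Grin2b, a subunit linked to plasticity of pain relays, lay at -0.044 ± 0.38, and the highest NMDA probe was of Grin3a at 0.21 ± 0.28. None of the NMDA probes had an unadjusted p under 0.05. The highest metabotropic receptor mean was that of Grm8, a presynaptic receptor, at 0.40 ± 0.66 with samples 3 and 4 negative. Grm6 lay at -0.77 ± 1.01, negative in 4 of 5, and is named because it is among the 17 means over 0.5 in size.

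**Figure D2:**
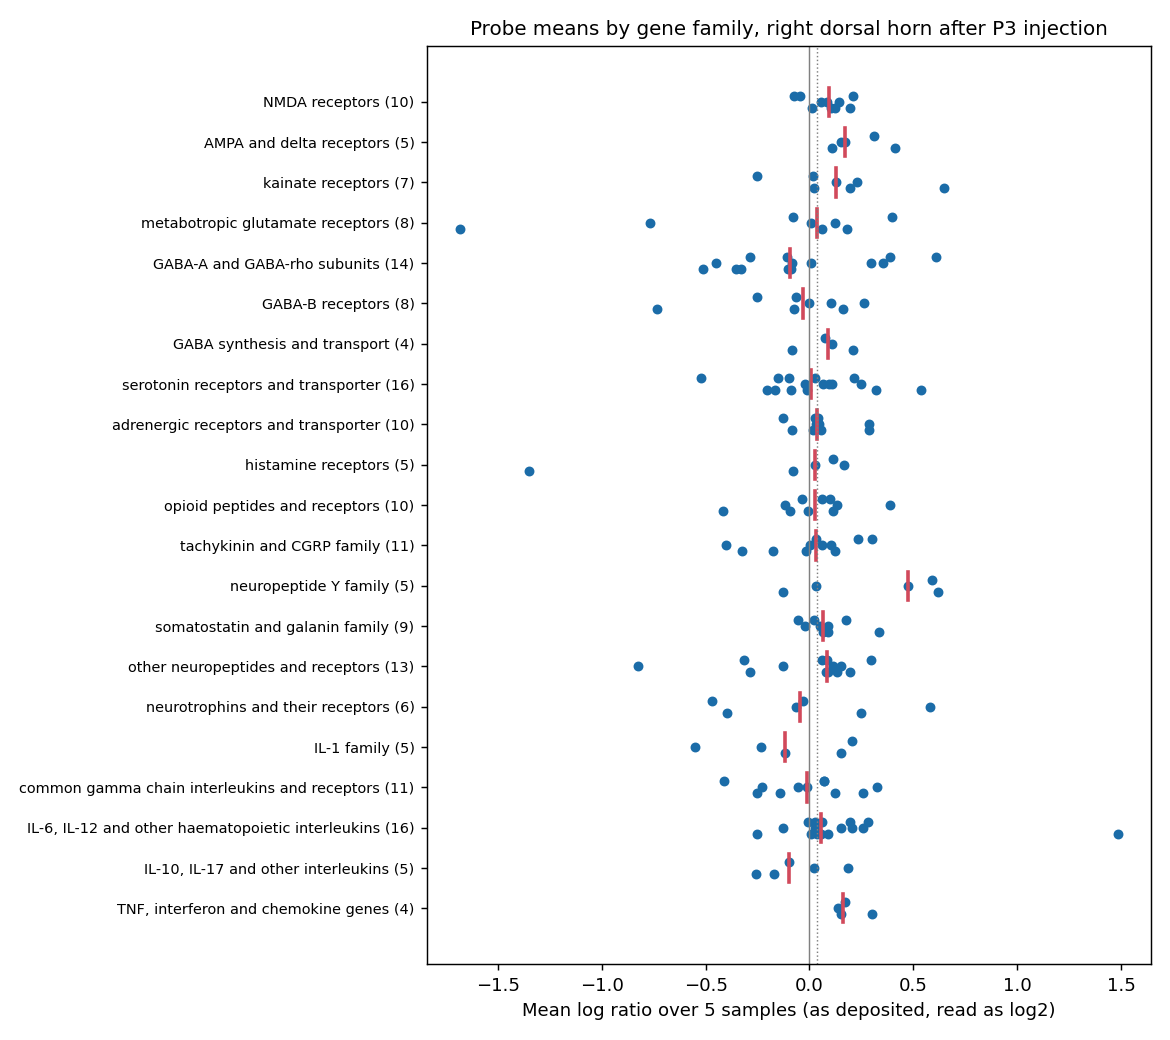
Mean log ratio over 5 samples of every named probe, by gene family, with the number of probes in parentheses. Each point is a probe, the red bar is the family median, the solid line is 0 and the dotted line is the median of all 222 probes (0.038); most points lie within 0.25 of 0, and Grm5, Hrh4 and IL12B stand outermost. The AMPA and delta list held AMPA receptors alone, and the somatostatin and galanin list held somatostatin and its receptors alone.

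GABA receptors, the inhibitory counterpart, had 8 positive and 14 negative means over 22 probes, with a median of -0.079. The left cord had 13 of 22 positive and brain 9 of 22. Of the 22, 2 positive and 2 negative probes had an unadjusted p under 0.05. Gabrq, the theta subunit of the GABA-A receptor, had -0.22, -0.35, -0.58, -0.30 and -0.20, a mean of -0.33 ± 0.15 that was negative in every sample. Gabrg3, a gamma subunit, had 0.31, 0.60, 0.48, 0.15 and 0.23, a mean of 0.35 ± 0.18 that was positive in 5 of 5. These 2 subunits of the same receptor class thus lay on opposite sides of 0, each with an adjusted p of 0.238.

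The lowest GABA-A mean was that of Gabra6, a subunit best known from cerebellar granule cells. Its values were -1.03, 3.03, -1.37, -2.13 and -1.06, a mean of -0.51 ± 2.03. Sample 3 alone was positive, and without it the mean was -1.40 with an adjusted p of 0.146. Ntsr2, a neurotensin receptor, had the same arrangement, with -1.20, 0.81, -0.94, -1.79 and -1.02, a mean of -0.83 ± 0.97, and -1.24 without sample 3 (adjusted p = 0.146). In limma on all 5 samples neither passed, at adjusted p values of 0.765 for Gabra6 and 0.478 for Ntsr2. Robust regression, which gives a distant sample such as sample 3 less weight, passed both, at adjusted p values of 0.0290 and 0.0231. The highest GABA receptor mean was that of Gabrr1, a rho subunit, at 0.61 ± 0.67 with sample 1 negative.

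Gabbr1, the GABA-B receptor subunit that binds GABA, had 8 probes whose means ran from -0.74 to 0.26, 3 positive and 5 negative. Probe 31 had -1.12, -0.58, -1.89, 0.015 and -0.11 (mean -0.74 ± 0.78), and probe 36 had 0.53, 0.062, 0.47, 0.22 and 0.041 (mean 0.26 ± 0.23). Both had an unadjusted p under 0.05, with opposite signs. GABA synthesis and transport genes had 3 of 4 means positive with a median of 0.091. The GABA-making enzymes Gad1 and Gad2 lay at 0.11 ± 0.12 and 0.075 ± 0.19, and the transporters Slc6a11 and Slc6a13 at 0.21 ± 0.28 and -0.086 ± 0.41.

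Opioid peptides and receptors, the endogenous pain-damping system, had 5 positive and 5 negative means over 10 probes with a median of 0.027, and 1 negative probe had an unadjusted p under 0.05. That probe, 190, was of Penk, the precursor of enkephalins, with -0.18, -1.04, -0.093, -0.22 and -0.56 (mean -0.42 ± 0.39), negative in 5 of 5. The other 2 Penk probes lay at 0.063 ± 0.14 and 0.11 ± 0.19, so the sign was that of 1 probe of 3. Oprm1, the receptor of morphine, had 0.10, 0.044, 0.046, 0.17 and 0.14, a mean of 0.10 ± 0.056. Its value in sample 1 is the average of -0.45 on array 1 and 0.65 on array 2, and its mean was -0.0098 with array 1 alone and 0.21 with array 2 alone. The small SD of Oprm1 thus rests on that average. Oprk1, the receptor of dynorphin, had the highest opioid mean, 0.39 ± 0.46 with sample 6 negative, and Oprd1, Pdyn and Pomc lay at -0.092 ± 0.34, -0.037 ± 0.12 and -0.0087 ± 0.15.

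Tachykinins, calcitonin gene-related peptide (CGRP) and their receptors, whose peptides are released by pain fibres, had 7 of 11 means positive with a median of 0.030, and 0 probes had an unadjusted p under 0.05. The 4 probes of Tac1, the precursor of substance P, had means of 0.11, -0.33, -0.17 and 0.30. Probe 213 of Tac1 ranged from -2.39 in sample 4 to 1.61 in sample 1, and probe 214 was negative in 5 of 5 samples. Calca lay at 0.060 ± 0.23, and the lowest mean was that of a Calcr probe at -0.40 ± 0.61, negative in 4 of 5. The second Calcr probe had 0.23 ± 0.84.

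The neuropeptide Y family, an inhibitory peptide and its receptors, had 4 of 5 means positive with a median of 0.47. The median of its 5 probes was 0.24, 0.39, 0.29, 0.43 and 0.11 in the 5 samples, above the median of all probes in each. Npy1r, a receptor on dorsal horn neurons, had 0.24, 0.98, 1.16, 0.43 and 0.29, a mean of 0.62 ± 0.42 with an adjusted p of 0.238. Npy2r, the presynaptic receptor, had 0.25, 0.39, 0.99, 0.64 and 0.11, a mean of 0.47 ± 0.35 with an adjusted p of 0.310. Both were positive in 5 of 5 samples, but the value of Npy1r in sample 1 averages 0.54 on array 1 and -0.058 on array 2. Npy5r lay at 0.59 ± 0.91, carried by 2.12 in sample 1, while the peptide gene Npy itself lay at -0.13 ± 0.17 and PPYR1 at 0.033 ± 0.39. At this small number of probes, 2 of 5 had an unadjusted p under 0.05. The left cord also had 4 of 5 means positive (median 0.17), and brain had 2 of 5 (median -0.081). Npy2r was positive in 5 of 5 left samples (0.36 ± 0.51) and in 5 of 6 brain samples (0.885 ± 1.17). Npy1r had negative means in both, -0.18 ± 0.82 on the left and -0.35 ± 0.61 in brain.

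Somatostatin and its receptors had 7 of 9 means positive with a median of 0.066. Sst lay at -0.023 ± 0.064, the lowest probe was of Sstr1 at -0.053 ± 0.16, and the highest was of Sstr2 at 0.34 ± 0.72, with 1.62 in sample 3 and the other 4 samples between -0.064 and 0.18. The other neuropeptides and receptors had 9 of 13 means positive with a median of 0.083. Nts, the neurotensin precursor, had 4 probes, at 0.11, -0.29, 0.15 and 0.13. Probe 177, the negative Nts probe, had 0.028, -0.52, -0.42, -0.39 and -0.13 and an adjusted p of 0.475. Vipr2, a receptor for vasoactive intestinal peptide, had 1 probe at -0.31 ± 0.34 and another at 0.30 ± 0.52, the highest mean of that list.

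Of the 16 probes for serotonin receptors and transporter, the targets of descending serotonin fibres, 8 were positive and 8 negative, around a median of 0.0069. Htr7, a receptor that raises cyclic AMP, had -0.045, 0.18, 1.10, 1.10 and 0.35, a mean of 0.54 ± 0.54 with an adjusted p of 0.477. Htr1f, a receptor that lowers cyclic AMP, was the lowest at -0.52 ± 0.60, negative in 4 of 5. Adrenergic receptors and transporter had 8 of 10 means positive with a median of 0.036, and ran from -0.13 for an Adra2a probe to 0.29 for Adra1b. Of the histamine receptors, Hrh4 probe 93 had -0.65, -0.31, -2.12, -1.60 and -2.08, a mean of -1.35 ± 0.83 that was negative in 5 of 5 with an adjusted p of 0.238. Its other probe, 94, had 0.11 ± 0.31. Probe 93 was also low in brain (-1.57 ± 0.41, negative in 6 of 6) and had -0.80 ± 1.74 in the left cord. The other histamine means ran up to 0.17 for Hrh2.

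Of the 6 probes for neurotrophins and their receptors, 2 were positive and 4 negative, around a median of -0.048. Ntf4, neurotrophin 4, had -0.026, -0.58, -0.35, -0.54 and -0.48, a mean of -0.40 ± 0.22, negative in 5 of 5 with an adjusted p of 0.238. Its receptor Ntrk2 (TrkB) had 0.63, 1.21, 0.76, -0.038 and 0.34, a mean of 0.58 ± 0.47 with an adjusted p of 0.310. Bdnf, also a TrkB ligand, had -1.26, -0.40, -0.80, 0.20 and -0.084, a mean of -0.47 ± 0.58 with 4 of 5 negative. Thus these 2 ligands had negative means and the receptor a positive one, and none passed. The same signs were seen in the left cord and brain, where Ntrk2 had 0.42 ± 0.17 and 0.50 ± 0.73, Bdnf -0.77 ± 0.66 and -0.82 ± 0.65, and Ntf4 -0.19 ± 0.23 and -0.20 ± 0.16. The other members, Ntrk3, Ngfr and Ntf3, lay at 0.25 ± 0.27, -0.030 ± 0.14 and -0.065 ± 0.15.

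Interleukins and their receptors had 22 positive and 15 negative means over 37 probes with a median of 0.028, where the left cord and brain each also had 22 positive, and 3 were positive at an unadjusted p under 0.05 and 0 negative. Besides IL12B these were Il6, an inflammatory cytokine, with 0.12, 0.41, 0.12, 0.28 and 0.092 (mean 0.20 ± 0.14), and Il4, an anti-inflammatory cytokine, with 0.25, 0.031, 0.25, 0.15 and 0.61 on probe 137 (mean 0.26 ± 0.22). Both were positive in 5 of 5 samples, each with an adjusted p of 0.477. The second Il4 probe lay at -0.056 ± 0.29. Within the family, the interleukin 1 list had 2 of 5 means positive, with Il1b at -0.12 ± 0.20 and Il1a at -0.55 ± 1.69. The Il1a mean was carried by -3.47 in sample 5, the other 4 lying between -0.34 and 0.67. Il1r2 was the highest of that list at 0.21 ± 0.43.

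The common gamma chain interleukins and receptors had 5 of 11 means positive, from -0.41 ± 0.56 for Il2rb to 0.32 ± 0.40 for Il7r. The list around interleukins 6 and 12 had 13 of 16 positive, with an Il3 probe lowest at -0.25 ± 0.32. The list around interleukins 10 and 17 had 2 of 5 positive, with Il16 at -0.26 ± 0.26, negative in 5 of 5, and Il10 at 0.18 ± 0.18, positive in 5 of 5. The 4 probes of the chemokine receptors Cxcr1 and Cxcr2 had positive means, from 0.14 to 0.30, and 0 had an unadjusted p under 0.05.

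Probes of a gene often disagreed. Of 23 genes with several probes, 7 had means of a single sign, and in 7 the probe means spanned more than 0.5. The span was 1.46 for Hrh4, 1.00 for the 8 probes of Gabbr1, 0.84 for Gabre, 0.64 for Calcr, 0.63 for Tac1, 0.61 for Vipr2 and 0.53 for Penk. At the other end, the 2 probes of Grik3 lay at 0.019 and 0.024, and the 3 probes of Cxcr2 at 0.30, 0.15 and 0.14. The sign of a gene represented by 1 probe, as 11 of the 18 probes above were, has no such check on this array.

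**Figure D3:**
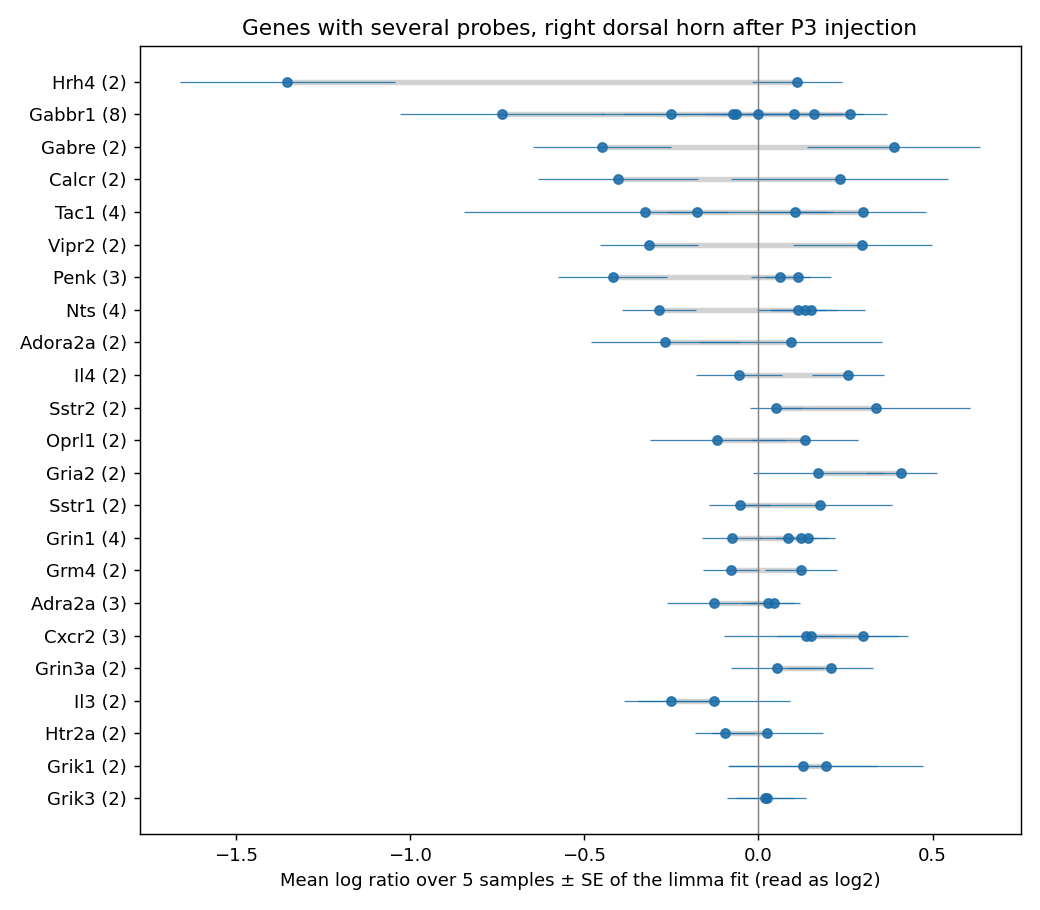
Means over 5 samples of each probe for the 23 genes with several probes, number of probes in parentheses, ordered by the span between the lowest and highest mean. Points are probe means, bars are ± SE from limma and grey bars join the probes of a gene; spans run from 1.46 for Hrh4 at the top down to Grik3, whose 2 probes lay at 0.019 and 0.024.

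The next question was where the opposite side differed from the injected side. In 1 limma fit of the 3 tissues, right minus left passed at 0 of 222 probes (0%), and 5 (2.25%) had an unadjusted p under 0.05. After adjustment the test without moderation and robust regression also passed 0. Right and left samples overlapped for every probe (0 of 222 separate, 0%). An epsilon subunit probe of the GABA-A receptor, Gabre probe 45, had -0.69, -0.75, -0.96, 0.28 and -0.12 on the right (mean -0.45 ± 0.51) and -0.038 to 0.51 on the left (mean 0.13 ± 0.22). The difference was -0.58 ± 0.23 (SE). The other Gabre probe, 44, lay the other way, at 0.39 on the right and 0.16 on the left, a difference of 0.22 ± 0.26 (SE). Grik2 had -0.25 on the right and 0.54 ± 0.44 on the left, and Grik4, a kainate subunit, 0.23 ± 0.46 and -0.36 ± 0.58, so these 2 subunits of a receptor class differed in opposite directions. Their differences were -0.79 ± 0.32 and 0.59 ± 0.26 (SE). Each of the 3 had an adjusted p of 0.997.

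For none of the genes named above did the sides differ after adjustment, and many of the intervals were wide. Npy1r had 0.62 on the right and -0.18 ± 0.82 on the left, a difference of 0.80 with a 95% interval of -0.02 to 1.62. For Gria2 probe 62 the difference was 0.31 (-0.05 to 0.67), for Ntf4 -0.21 (-0.50 to 0.09), for Gabrq -0.13 (-0.37 to 0.12) and for Il6 0.21 (-0.10 to 0.53). The interval for Oprm1 ran from -0.95 to 1.19. A miss of the threshold here does not show that the sides were alike.

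Right minus brain passed at 1 of 222 probes (0.45%), with 9 at an unadjusted p under 0.05 (4.05%). The passing probe, 209, is unnamed here, was chosen for description after its values were seen, and had 0.10, 1.52, 0.97, 0.86 and 1.37 in the right cord, a mean of 0.96 ± 0.55. All 5 right samples were positive, against -0.56 to 0.24 in brain (mean -0.24 ± 0.31, n = 6) and -0.37 to 0.34 in the left cord (mean -0.048 ± 0.29, n = 5). Sample 1 of the right cord lay inside the range of both. Right minus brain was 1.20 ± 0.23 (SE) with an adjusted p of 0.0271, and right minus left was 1.01 ± 0.24 with an adjusted p of 0.197. The adjusted p of right minus left fell to 0.00771 without right sample 1. Without any other right or left sample it lay between 0.161 and 0.714. Against 0, this probe had an adjusted p of 0.238 on the right samples alone and 0.0121 in the fit of the 3 tissues. The call against brain was lost without any 1 of 7 of the 11 samples (right samples 3, 4 and 6 and brain samples 1, 3, 4 and 6, adjusted p from 0.0678 to 0.119). It was also lost with near-identical arrays kept separate (adjusted p = 0.0785), with arrays scaled to a common spread (0.0630), in a fit of these 2 groups (0.125) and without moderation of the variances (0.0519).

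Among named probes, Gabre probe 45 had the smallest p against brain, with a difference of -0.78 ± 0.22 (SE) and an adjusted p of 0.327, which fell to 0.0337 without right sample 5, the positive one. Gabre probe 44 differed from brain in the opposite direction, by 0.40 ± 0.25 (SE). Grik3 probe 69 had 0.024 on the right and -0.76 ± 0.59 in brain, and Calcr probe 21 -0.40 on the right and 0.37 ± 0.43 in brain, each with an adjusted p of 0.704. All 6 brain samples of Grik3 probe 69 were negative, whereas its right samples had both signs. The second probes of both genes did not share these directions: Grik3 probe 67 had 0.019 on the right and 0.23 in brain, 3 samples positive and 3 negative, and Calcr probe 22 had 0.23 on the right and -0.033 in brain. Right and brain samples overlapped for every probe (0 of 222 separate, 0%). Values in both tissues are log ratios against their own control, so a difference is a difference between ratios and not between levels.

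**Figure D4:**
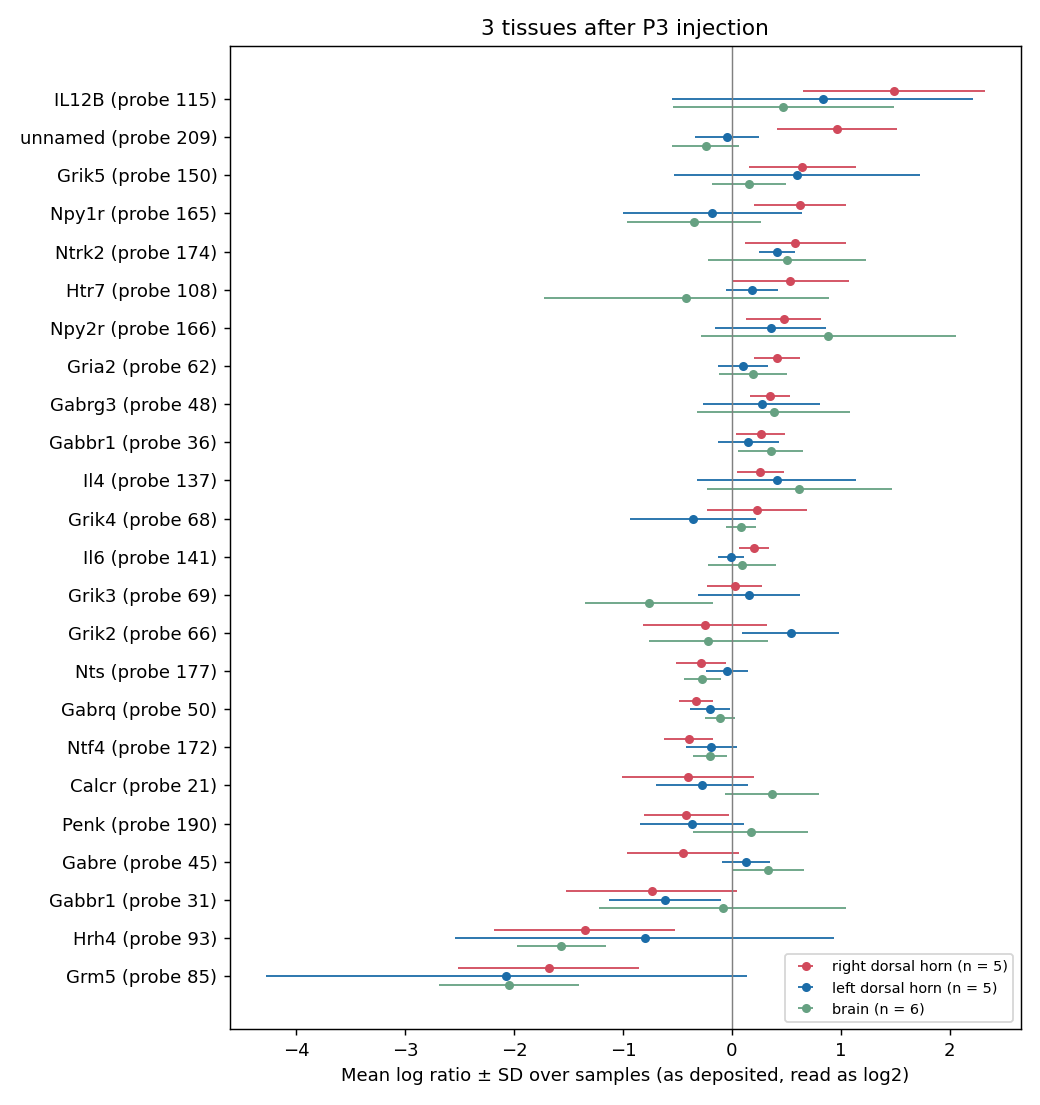
Mean log ratio ± SD in the right dorsal horn (n = 5), left dorsal horn (n = 5) and brain (n = 6) after injection on day 3, for the 18 named probes with an unadjusted p under 0.05, the 5 probes named for a tissue difference and the unnamed probe 209. Grm5 and Hrh4 probe 93 have negative means in all 3 tissues, while probe 209 stands at 0.96 on the right and near 0 elsewhere.

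Injection on day 12 was measured on another platform, so its right cord is given beside these values untested, because injection age and platform cannot be told apart. For 160 probes the same gene and sequence entry stood once on each platform. Grm5 lay at 0.014 ± 0.15 (SD, n = 5) after injection on day 12 against -1.68 after day 3, and IL12B at 0.23 ± 0.19 against 1.48. Npy1r lay at -0.90 ± 0.33, negative in 5 of 5, where all 5 samples after day 3 were positive. Gria2 on the entry of probe 62 was positive in 5 of 5 samples at both ages, with 1.24 ± 0.75 after day 12. Ntrk2 lay at -0.53 ± 0.68 after day 12, positive in 1 of 5, and Ntf4 at 0.15 ± 0.86.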

How the data were processed

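The authors deposited 1 table of log ratios per injection age, read here as log2; per the labels, RNA was isolated with TRIzol, cDNA was made from 5 µg of it with Genesphere's 3DNA kit and hybridised to custom-printed oligonucleotide arrays. Scanner, background correction, normalization, log base and ratio direction are not stated in the labels or files. No intensities were used here, so signal over background is unknown and the number of arrays limits the precision. Symbols came from the platform annotation, and 187 of 196 named probes matched the GRCr8 rat gene table by Entrez identifier, which changed 0 symbols. The named probes without a match were those of IL12B, IL12A, PPYR1, SSTR, Il16, Il7r, Gabra2, Ntsr1 and Adora3. Probes were kept apart, arrays as deposited. Right arrays 1 and 2 and left arrays 5 and 6 (r of at least 0.8) were averaged.

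Means against 0 were tested with limma 3.58.1 (R 4.3.3; lmFit, eBayes) on the right samples, and differences between tissues in 1 fit of the 3 tissues, two-sided, with Benjamini-Hochberg adjustment over 222 probes; the scripts were tested on simulated data. Differences passed at an adjusted p under 0.05. Named were probes with a symbol and an unadjusted p under 0.05 (at most 30), the highest and lowest probe of each list of at least 3 probes, a fixed panel of 23 genes of which 21 were measured, all probes of the first set's genes, and the 3 probes with the smallest p in each tissue difference, passing over unnamed probes except 209; others are said to be chosen after their values were seen or stand beside a family member. Members and lists were chosen with earlier results of these data known. Alternatives changed the averaging, centring, scaling, weighting, moderation, zeros, probe summary and samples.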

Additional observations from a re-analysis of the deposited data

Results flagged for a closer look

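In 7 of the 82 named probes 1 right sample stood far from the other 4, judged by its gap to the nearest sample over the range. Chance gives about 1 such probe in 20 where probes are not picked by their values. Many of the 82 were named by their values, Gabra6, Sstr2 probe 200, Tac1 probe 215 and Il1a as extremes of a list. That rate therefore cannot be set against this count. Sample 3 stood apart in Gabra6 (3.03, the others -2.13 to -1.03), Sstr2 probe 200 (1.62, the others -0.064 to 0.18), Tac1 probe 215 (1.13, the others -0.022 to 0.16) and Nts probe 178 (0.815, the others -0.18 to 0.066). Sample 5 stood apart in Il1a (-3.47, the others -0.34 to 0.67) and Pdyn (-0.25, the others -0.0090 to 0.036). Sample 1 stood apart in Grin1 probe 77 (0.33, the others 0.091 to 0.105).

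Between the right cord after injection on day 3 and on day 12, 3 of the 160 matched probes had all samples positive at day 3 and all negative at day 12. For Oprm1 and Npy1r this rests on the averaging of arrays 1 and 2. Oprm1 had -0.45 on array 1, and Npy1r had -0.058 on array 2. The differences of the means were 1.52 for Npy1r, 1.61 for Gabbr1 probe 36 and 0.89 for Oprm1. They were not tested, since the ages stand on different platforms.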

How the results depend on the processing

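For the mean against 0, the count of passing probes was 0 under every alternative except robust regression (4: IL12B, Ntsr2, Gabra6 and a Calcr probe) and 1 fit of the 3 tissues (1, probe 209); it was 0 without any 1 sample. At an unadjusted p under 0.05, robust regression gave 43. Averaging the probes of a symbol reversed Gabbr1 probe 36 (to -0.075) and Nts probe 177 (to 0.028). For right minus left, the count without any 1 sample ranged from 0 to 1; at an unadjusted p the count was 9 with near-identical arrays kept separate, 3 with unnamed probes left out, 13 by robust regression, and 2 to 13 without any 1 sample. For right minus brain, the count was 0 with near-identical arrays kept separate, with arrays scaled to a common spread, in the fit of these 2 groups, without moderation, with unnamed probes left out (which removes probe 209) and with replicate number as a block (0 as well for right minus left), and 0 to 2 without any 1 sample. At an unadjusted p it was 5 with probes of a symbol averaged, 18 by robust regression, and 6 to 13 without any 1 sample. Where no cause is given, the cause was not tested. The numbers were not taken to pair the samples, but whether same-numbered samples share a rat could not be settled. Deviations of same-numbered right and left samples correlated at 0.0021 to 0.16, those of right and brain at -0.053 to 0.20. Right samples 1 and 3 correlated best with the left sample of their own number, and 4 and 5 did not. With brain, right samples 3, 4 and 5 did, and 1 and 6 did not. With the replicate block, probe 209 had an adjusted p of 0.136 against brain. No intensity was used, so dim probes could not be told from bright ones.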

Other observations

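Adenosine receptors were grouped after the values had been seen. Of their 5 probes 4 had positive means, with a median of 0.077, from -0.27 for an Adora2a probe to 0.33 for Adora1, and 0 had an unadjusted p under 0.05. The left cord had 2 of 5 positive and brain 5 of 5.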
